A study of Mus musculus with 39 samples.

Results

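The genes described here are 10 genes of interferon response and antigen presentation, *Irf1*, *Nlrc5*, *Irgm1*, *Gbp2*, *Gbp3*, *Psmb8*, *Psmb9*, *Tap1*, *Erap1* and *B2m*, out of 47643 genes listed in each count table. They were found by gene symbol. The list was chosen from measured values of these data, and the difference between *Stat3* null and WT EpiSC lines is taken as the one that chose it. That difference is therefore given below as a description with no test, while the single epiblasts are compared with tests that the choice is not known to have used.

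RNA was sequenced from single epiblasts of CD1 outcrossed mouse embryos and from epiblast stem cell (EpiSC) lines. The epiblasts came from matings between *Stat3* heterozygous mice and were taken at E5.5 (4 *Stat3* null, 2 WT), E6.5 (8 null, 9 WT) and E7.5 (3 null, 9 WT). Each was freed of extraembryonic ectoderm and visceral endoderm, and genotyped on extraembryonic tissue. In the null allele a stretch of coding exons is replaced by a neomycin resistance gene, so reads from the remaining exons are still counted for *Stat3*. The EpiSCs were 2 null lines (2 and 6) and 2 WT lines (8 and 13) cultured in N2B27 medium with FGF2, Activin A and the tankyrase inhibitor XAV-939 on fibronectin, each line being 1 culture. The null allele is constitutive, so it is not limited to a cell type. Levels are given as CPM, that is as counts scaled to a library's total. In bulk samples fewer cells of a type and less RNA per cell cannot be told apart.

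Interferons bind cell surface receptors whose JAK kinases phosphorylate STAT proteins. Type II interferon acts through GAS elements in promoters and switches on *Irf1*, a transcription factor that in turn activates further genes through IRF elements. Among these genes are GTPases that act on intracellular pathogens (*Irgm1*, *Gbp2*, *Gbp3*) and the machinery that shows peptides on MHC class I. In that machinery *Psmb8* and *Psmb9* encode inducible proteasome subunits, *Tap1* encodes one chain of the peptide transporter of the endoplasmic reticulum, *Erap1* an aminopeptidase that trims the peptides there, and *B2m* the light chain of the class I molecule. *Nlrc5* encodes a coactivator of class I genes. MHC class I is known to be scarce on cells of the early embryo.

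Of the 10 genes, 9 have a promoter entry in RefSeq (GRCm38.p6), running from 250 bases before to 50 bases after the start site, with 11 entries in all and no entry for *Nlrc5*. These windows were searched on both strands for GAS, spelled TTCNNNGAA, and for an IRF element, spelled AANNGAAA. GAS was found for *Irf1* (first base 90 bases before the start site) and *Psmb8* (97 bases before), that is for 2 of the 9 genes, against 8.3% of 32851 mouse promoter windows. The IRF element was found for 5 genes, *Irgm1*, *Gbp2*, *Gbp3*, *Erap1* and *B2m*, against 23.9% of all windows. *Tap1* and *Psmb9* held neither, and their windows overlap on opposite strands, since the 2 genes are neighbours that point away from each other. A match is a run of letters and not a bound site. The windows of 4 genes are shown, the 2 with a GAS match and 2 of those with an IRF element, with the matched letters in capitals, for *Irf1* (chr11:53769764-53770063, plus strand), *Psmb8* (chr17:34197945-34198244, plus strand), *Irgm1* (chr11:48871371-48871670, minus strand) and *Gbp2* (chr3:142620413-142620712, plus strand), each 5′ to 3′.
Irf1: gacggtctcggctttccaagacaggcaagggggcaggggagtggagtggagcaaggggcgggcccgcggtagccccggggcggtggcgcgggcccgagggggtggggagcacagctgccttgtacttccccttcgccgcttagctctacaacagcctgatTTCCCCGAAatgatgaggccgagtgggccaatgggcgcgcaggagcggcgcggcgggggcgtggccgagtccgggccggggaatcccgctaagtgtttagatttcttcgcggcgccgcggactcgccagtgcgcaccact
Psmb8: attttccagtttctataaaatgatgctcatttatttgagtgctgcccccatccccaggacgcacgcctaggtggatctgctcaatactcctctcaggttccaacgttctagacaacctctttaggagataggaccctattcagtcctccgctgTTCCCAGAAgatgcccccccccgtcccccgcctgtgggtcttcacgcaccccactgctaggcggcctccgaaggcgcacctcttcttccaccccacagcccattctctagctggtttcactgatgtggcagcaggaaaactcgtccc
Irgm1: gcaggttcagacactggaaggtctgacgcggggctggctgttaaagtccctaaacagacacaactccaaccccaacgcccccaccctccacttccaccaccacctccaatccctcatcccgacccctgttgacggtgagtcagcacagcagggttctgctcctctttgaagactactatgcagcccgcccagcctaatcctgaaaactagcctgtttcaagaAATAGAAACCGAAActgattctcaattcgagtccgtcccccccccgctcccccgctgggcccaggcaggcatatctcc
Gbp2: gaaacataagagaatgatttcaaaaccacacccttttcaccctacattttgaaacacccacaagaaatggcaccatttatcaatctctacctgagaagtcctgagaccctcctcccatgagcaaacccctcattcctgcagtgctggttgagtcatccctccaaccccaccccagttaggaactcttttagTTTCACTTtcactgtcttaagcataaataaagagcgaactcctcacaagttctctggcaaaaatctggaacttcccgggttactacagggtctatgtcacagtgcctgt
In *Irf1* and *Psmb8* the capitals are the GAS match, in *Irgm1* they are 2 overlapping IRF elements close to the start site, and in *Gbp2* they are an IRF element read on the other strand.

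*Psmb9*, *Tap1* and *Psmb8* lie within 19.5 kb of chromosome 17 in the MHC region, and *Gbp3* and *Gbp2* are 47.4 kb apart on chromosome 3. The gene models of *Tap1* and *Psmb9* share 212 bases. *Irf1*, *Gbp2*, *Psmb8*, *Erap1*, *B2m* and *Nlrc5* each overlap a gene on the other strand (*Cast* for *Erap1*, the microRNA gene *Mir6381* for *Gbp2*). The strand setting of the counting is not given in the sources used here, so reads from such overlaps cannot be told apart. *Irf1* and *Irgm1* are on chromosome 11, as is *Stat3*, at distances of 47.1 and 52.0 Mb from it.

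Library totals lay between 22941210 and 79013960 counts in epiblasts and between 63445877 and 127583699 in EpiSCs. A count of 0 allows a level of up to 3 counts, which is 0.038 to 0.131 CPM in an epiblast library, counting error only. *Stat3* itself was at 1.22 to 1.48 CPM in the 3 null and 4.80 to 25.3 CPM in the 9 WT libraries at E7.5. All 8 epiblast markers looked up were above 3 counts in every library but one. The exception, E5.5 null 1, had 5 of them, and held 0.654 CPM of the epiblast transcription factor *Pou5f1*, against 101 to 293 CPM in the other E5.5 libraries. Markers of extraembryonic ectoderm, summed over 10 genes, were at 1405 CPM in it and at 175 to 579 CPM in the other E5.5 libraries. At E6.5 they were at 886 CPM in null 1 and at 11.3 to 169 CPM in the others. Both libraries were kept in the main fits. E5.5 null 1 and 2 more libraries, E6.5 WT 3 and E7.5 WT 3, were taken as apart from their stage after the data were seen. Values without them are given beside the results below. E6.5 WT 3 was itself an outlier for 7 of the 10 genes, so leaving it out is not independent of the levels described. E6.5 null 1 and E6.5 null 2, the latter an outlier for 5 of the 10 genes, were not among the 3. At E6.5 these values therefore leave out a high library of WT only. Markers of visceral endoderm, the epithelium around the epiblast, were read in every epiblast library. Their summed level over 12 genes was 5382 to 11520 CPM at E5.5 apart from null 1 (26.3 CPM), 56.3 to 5490 CPM in WT and 123 to 6579 CPM in null at E6.5, and 397 to 4482 CPM in WT and 47.0 to 289 CPM in null at E7.5. The 5490 CPM was in E6.5 WT 3, whereas E6.5 null 3, null 4 and null 8, at 6579, 4767 and 4174 CPM, were not left out. Markers of immune cells and maternal blood summed to at most 23.4 CPM in any library.

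In WT epiblasts most of the 10 genes had their highest mean at E5.5 and their lowest at E7.5, and *B2m* was higher again after E6.5. The mean over the 10 genes of log2 CPM with a prior count of 2 was 2.2 ± 0.90 (SD, n = 2) in WT at E5.5, 0.31 ± 0.90 (SD, n = 9) at E6.5 and -0.97 ± 0.30 (SD, n = 9) at E7.5. In null it was 1.63 ± 1.75 (SD, n = 4), 0.10 ± 0.56 (SD, n = 8) and -0.93 ± 0.53 (SD, n = 3). Without the 3 libraries that stood apart the mean was 2.47 ± 0.54 in null at E5.5 (SD, n = 3), 0.04 ± 0.40 in WT at E6.5 and -0.99 ± 0.32 in WT at E7.5 (SD, n = 8). These means depend on the prior count, and with 0.5 in place of 2 they were -0.59 in null at E6.5, -1.65 in null at E7.5 and -1.87 in WT at E7.5. Between E6.5 and E7.5 in WT, 7 of the 10 genes passed the filter on low counts and 4 of these were called, 3 lower and 1 higher, while 8.83% of the 17191 genes tested were called. A gene was called where edgeR's quasi-likelihood test gave an adjusted p under 0.05, adjusted over the whole table, and the size of its log2 fold change was above 1. *Gbp2*, *Gbp3* and *Psmb9* were too low for this test. Both marker sums moved over this interval in WT, with medians of 6274 CPM at E6.5 and 2031 CPM at E7.5 for epiblast markers and of 174 CPM and 1704 CPM for visceral endoderm markers. Their part in the result was not tested.

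**Figure D1:**
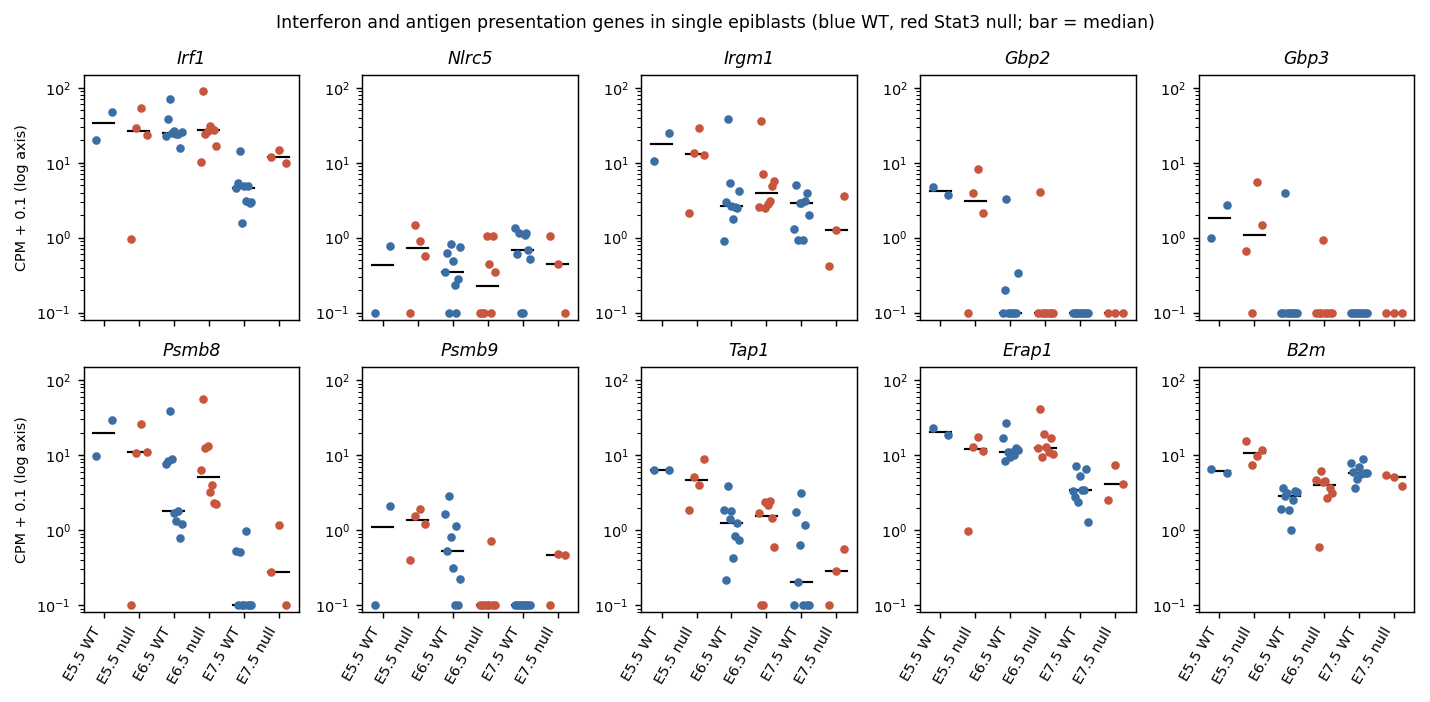
Level of each gene in each of the 35 epiblast libraries, as CPM plus 0.1 on a log axis, by stage and genotype, with blue points for WT, red points for null and bars for medians. *Irf1*, *Erap1* and *Psmb8* sit lower at E7.5 than at E6.5, *Gbp2* and *Gbp3* are at 0 in all 12 libraries at E7.5, and *B2m* is lowest at E6.5.

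*Irf1*, the transcription factor of the group, had the highest CPM of the 10 genes at E5.5 and E6.5 by the group means. It stood at 20.0 and 47.2 CPM in the WT libraries at E5.5. At E6.5 the 9 WT libraries ran from 15.4 CPM through a median of 25.2 CPM to 71.3 CPM, and at E7.5 from 1.46 CPM through 4.49 CPM to 14.1 CPM. The WT libraries of the 2 later stages did not overlap. *Irf1* fell by 2.72 on the log2 scale from E6.5 to E7.5 in WT (SE 0.39, edgeR adjusted p = 6.32e-05, n = 9 and 9). With E6.5 WT 3 and E7.5 WT 3 removed it was -2.86 (edgeR adjusted p = 1.41e-08). From E5.5 to E6.5 in WT its log2 fold change was -0.09 (SE 0.47, edgeR adjusted p = 0.946). *Nlrc5* was near the limit of detection in every group, from 0 to 1.4 CPM over all epiblasts, and its log2 fold change from E6.5 to E7.5 in WT was 0.95 (SE 0.91, edgeR adjusted p = 0.494).

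The GTPases *Irgm1*, *Gbp2* and *Gbp3* were all present at E5.5 and sparse later. *Irgm1*, which acts in the immunity of cells against intracellular bacteria, was at 10.5 and 24.6 CPM in WT at E5.5, at 0.790 to 38.7 CPM with a median of 2.57 CPM at E6.5, and at 0.833 to 4.96 CPM with a median of 2.78 CPM at E7.5. Its log2 fold change from E6.5 to E7.5 in WT was -1.58 (SE 0.65, edgeR adjusted p = 0.0799), but -0.14 without E6.5 WT 3 and E7.5 WT 3, -0.23 with DESeq2, and -1.74 with a call without E6.5 WT 1 (edgeR adjusted p = 0.0468). *Gbp2* was at 4.62 and 3.59 CPM in WT at E5.5. At E6.5 it was at 0 in 6 of 9 WT libraries and at 3.20 CPM in WT 3. It was at 0 in all 12 libraries of E7.5, so that E5.5 WT was at least 39.8-fold higher than E7.5 WT, taking 3 counts in each E7.5 library as the floor. *Gbp3* was at 0.902 and 2.60 CPM in WT at E5.5, at 0 in 8 of 9 WT libraries at E6.5, and again at 0 throughout E7.5, at least 17-fold lower than E5.5 in WT. In null the same bounds were 46.4-fold for *Gbp2* and 24.3-fold for *Gbp3*. These bounds carry no test.

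Between E5.5 and E6.5 in WT, all 10 genes were tested and none was called by edgeR with TMM or RLE size factors, while 5.15% of 20763 genes were called. Of the 10 genes 2 had an unadjusted p under 0.05, as had 4772 of all genes. With DESeq2 1 of the 10 genes, *Irgm1*, was called, beside 1921 of all genes. This result turns on 1 library. Without E6.5 WT 3, 4 of the 10 genes and 2029 of all genes were called, the latter against 1070 with it. *Irgm1* then had a log2 fold change of -2.67 (edgeR adjusted p = 0.00196) and *Tap1* of -2.70 (edgeR adjusted p = 0.0168), against -1.32 (SE 1.13) and -2.24 (SE 0.81) with the library. Over all alternatives the adjusted p ranged from 2.81e-04 to 0.855 for *Irgm1* and from 0.0168 to 0.468 for *Tap1*. The other 2 called were *Gbp2* and *Gbp3*, which passed the filter through E5.5 alone and reached 10 counts in 1 of 9 WT libraries at E6.5, so no fold change is given for them. Visceral endoderm markers moved with this difference, at 5382 and 7083 CPM in WT at E5.5 against a median of 174 CPM at E6.5, where WT 3 had 5490 CPM. Their part in the result was not tested.

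*Psmb8* encodes the inducible partner of *Psmb5* in the chymotrypsin-like site of the proteasome. It was at 9.66 and 29.1 CPM in WT at E5.5. At E6.5 the WT libraries ran from 0.696 CPM through a median of 1.72 CPM to 38.6 CPM, and at E7.5 6 of 9 were at 0 and the highest at 0.889 CPM. The 2 stages overlapped in their lowest and highest libraries. *Psmb8* fell by 5.36 on the log2 scale from E6.5 to E7.5 in WT (SE 1.14, edgeR adjusted p = 0.00187), and the log2 fold change was -4.58 without E6.5 WT 3 and E7.5 WT 3 (edgeR adjusted p = 0.00303). It reached 10 counts in 9 of 9 WT libraries at E6.5 and in 3 of 9 at E7.5, with 32 counts at most, so it passed the filter through E6.5 and the fitted size rests on few reads. At E6.5 its level also moved with library depth, with 6.18 to 55.2 CPM in the 6 libraries over 40000000 counts and 0.696 to 13.2 CPM in the 11 others. The part of depth in the result was not tested. Per length of annotated exons, *Psmb8* made up 13.3% ± 6.29 (SD, n = 2) of *Psmb8* plus *Psmb5* in WT at E5.5, 5.13% ± 6.99 (SD, n = 9) at E6.5 and 0.152% ± 0.249 (SD, n = 9) at E7.5, with medians of 13.3%, 1.4% and 0%. In null the means were 9.23% ± 9.91 (SD, n = 4), 7.73% ± 8.50 (SD, n = 8) and 0.274% ± 0.372 (SD, n = 3). *Psmb5* itself held 31.2 ± 6.69 CPM at E5.5, 35.4 ± 5.07 CPM at E6.5 and 37.1 ± 5.62 CPM at E7.5 in WT (SD, n = 2, 9 and 9), a range narrower than that of *Psmb8*. The share carries no test.

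**Figure D2:**
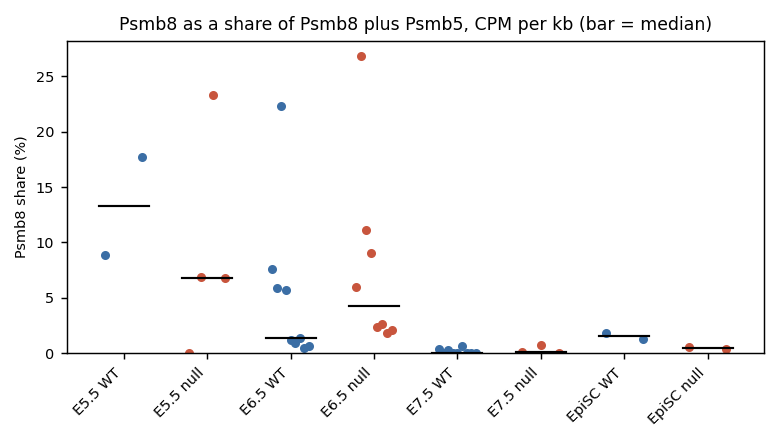
*Psmb8* as a percent of *Psmb8* plus *Psmb5* per library, computed from CPM per kb of exons, in epiblasts and EpiSC lines, with blue points for WT, red points for null and bars for medians. The medians in WT were 13.3% at E5.5, 1.4% at E6.5 and 0% at E7.5, and the highest E7.5 library was at 0.698%.

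*Psmb9*, the inducible partner of *Psmb6*, was scarcer. It was at 0 and 2.0 CPM in WT at E5.5, at 0 to 2.77 CPM with a median of 0.435 CPM in WT at E6.5, and at 0 in all 9 WT libraries of E7.5, so that E6.5 WT was at least 7.35-fold higher. In null it was at 0 in 7 of 8 libraries at E6.5 and at 0, 0.377 and 0.360 CPM at E7.5. The null and WT libraries therefore ran in opposite order at the 2 stages, at levels of at most 22 counts in the null libraries. The difference between the genotype effects at E6.5 and E7.5 was tested over all 35 libraries, where none of the 10 genes and 0.245% of 24126 genes were called. For *Psmb9* its adjusted p was 0.0740 in edgeR, and the fitted size is not given because one group is at 0. It was called when E6.5 null 6, E6.5 WT 3 or E7.5 WT 3 was left out, 1 library at a time. With E7.5 WT at 0 throughout and E6.5 null at 0 in 7 of 8 libraries, neither this p nor these calls are read as a result.

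*Tap1* was at 6.20 and 6.15 CPM in WT at E5.5, at 0.116 to 3.77 CPM with a median of 1.15 CPM at E6.5 and at 0 to 2.98 CPM with a median of 0.101 CPM at E7.5. Its log2 fold change from E6.5 to E7.5 in WT was -0.96 (SE 1.01, edgeR adjusted p = 0.541), or -0.39 without E6.5 WT 3 and E7.5 WT 3. *Erap1* was steadier. It stood at 22.7 and 18.3 CPM in WT at E5.5, at 8.35 to 27.2 CPM with a median of 11 CPM at E6.5 and at 1.19 to 7.17 CPM with a median of 3.31 CPM at E7.5, and the 2 later stages did not overlap. *Erap1* fell by 1.83 on the log2 scale from E6.5 to E7.5 in WT (SE 0.31, edgeR adjusted p = 2.50e-04), with -1.78 without E6.5 WT 3 and E7.5 WT 3 (edgeR adjusted p = 2.85e-05). From E5.5 to E6.5 it was -0.62 (SE 0.36, edgeR adjusted p = 0.341), and -0.89 without E6.5 WT 3, where the edgeR adjusted p of 0.0215 passed but the size did not reach the call.

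*B2m* took another course. It was at 6.43 and 5.73 CPM in WT at E5.5, at 0.918 to 3.55 CPM with a median of 2.75 CPM at E6.5 and at 3.55 to 8.91 CPM with a median of 5.61 CPM at E7.5. The E6.5 and E7.5 libraries overlapped only where the highest of one met the lowest of the other. *B2m* rose by 1.18 on the log2 scale from E6.5 to E7.5 in WT (SE 0.26, edgeR adjusted p = 0.0021), or by 1.27 without E6.5 WT 3 and E7.5 WT 3, after a log2 fold change of -1.24 from E5.5 to E6.5 (SE 0.48, edgeR adjusted p = 0.133). The heavy chain *H2-D1* was at 31.9 ± 14.4, 11.2 ± 2.11 and 10.2 ± 2.83 CPM at the 3 stages in WT (SD, n = 2, 9 and 9), and *H2-K1* at 2.71 ± 0.693, 1.09 ± 0.868 and 2.1 ± 0.882 CPM. Per kb of exons, which allows levels of genes to be compared, *B2m* was at 2.93 ± 1.0 CPM per kb and *Irf1* at 7.62 ± 4.14 CPM per kb in WT at E6.5, and their order was turned at E7.5 with 7.04 ± 1.87 and 1.22 ± 0.927 CPM per kb (SD, n = 9).

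Null epiblasts followed similar levels through the stages, with fewer libraries. From E5.5 to E6.5 in null none of the 10 genes was called against 1.98% of 18352 genes. Of the 10, 3 had an unadjusted p under 0.05, as had 18.3% of all genes. With DESeq2 1 of the 10, *B2m*, was called, beside 1027 of all genes. *B2m* was at 15.6, 7.19, 9.69 and 11.5 CPM in the E5.5 null libraries and at 0.505 to 6.11 CPM with a median of 3.93 CPM at E6.5, with no overlap, a log2 fold change of -1.62 and an SE of 0.50 (edgeR adjusted p = 0.0896), or -1.37 without E5.5 null 1 (edgeR adjusted p = 0.216). Leaving out 1 library moved this p across the threshold, to 0.0396 when E6.5 null 2 was left out and to 0.0487 when E6.5 null 3 was. The other log2 fold changes were 0.23 for *Irf1* (SE 0.74, and -0.14 without E5.5 null 1), -0.83 for *Irgm1* (SE 0.80, and -1.17 without it) and 0.64 for *Erap1* (SE 0.60, and 0.29 without it). From E6.5 to E7.5 in null none of the 8 genes tested was called against 0.103% of 19460 genes, with 3 of the 8 and 8.13% of all genes at an unadjusted p under 0.05. DESeq2 called 2 of them, *Psmb8* and *Erap1*, beside 292 of all genes. *Psmb8* was at 0.173, 1.08 and 0 CPM in the E7.5 null libraries, below all 8 at E6.5 (2.1 to 55.2 CPM), with a log2 fold change of -4.92 (SE 1.52, edgeR adjusted p = 0.340). It reached 10 counts in 8 of 8 null libraries at E6.5 and in 1 of 3 at E7.5. It thus passed the filter through E6.5, its fitted size rests on few reads, and its call in DESeq2 is not read as a result. *Erap1* was at 2.42, 7.30 and 3.99 CPM at E7.5, below all 8 at E6.5 (9.44 to 40.8 CPM), with -1.87 (SE 0.53, edgeR adjusted p = 0.263). For *Irf1* the log2 fold change was -1.41 (SE 0.54, edgeR adjusted p = 0.491), for *Irgm1* -2.30 (SE 1.08) and for *B2m* 0.37 (SE 0.62).

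**Figure D3:**
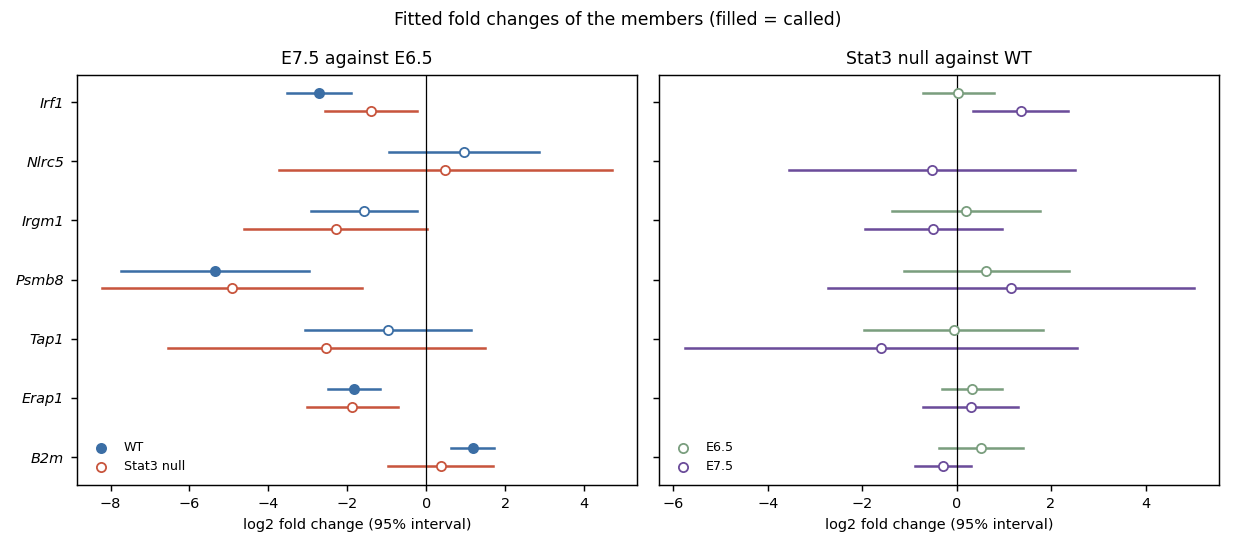
Fitted log2 fold changes of the 7 genes tested in WT between E6.5 and E7.5, with 95% intervals, for E7.5 against E6.5 in each genotype on the left and for null against WT at E6.5 and E7.5 on the right, filled where called. The 4 filled points are WT *Irf1*, *Psmb8* and *Erap1* below 0 and *B2m* above 0, and no null against WT value is filled.

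At E6.5, 2 libraries of opposite genotype carried most of the high values. E6.5 null 2 and E6.5 WT 3 held 89.8 and 71.3 CPM of *Irf1*, where the other 15 libraries held 10.2 to 38.3 CPM. *Irgm1* was at 35.9 and 38.7 CPM in them and at 0.790 to 7.03 CPM in the rest. *Psmb8* was at 55.2 and 38.6 CPM, and at 0.696 to 13.2 CPM in the rest. *Erap1* was at 40.8 and 27.2 CPM, and at 8.35 to 19.2 CPM in the rest. *Gbp2* was at 3.99 and 3.20 CPM, with at most 0.241 CPM elsewhere. The 2 libraries thus stood above all others of their stage for 5 of the 10 genes, and their *Gbp2* was close to that of E5.5 WT. *Gbp3*, *Psmb9* and *Tap1* set them apart from each other, with 3.84, 2.77 and 3.77 CPM in WT 3 and 0 CPM of all 3 in null 2, and *B2m* was at its lowest in null 2 (0.505 CPM). Visceral endoderm markers summed to 5490 CPM in WT 3 and 510 CPM in null 2, while null 3, which had 6579 CPM of them, held 7.03 CPM of *Irgm1*. Immune and maternal blood markers summed to 0 CPM in null 2 and 4.80 CPM in WT 3. *Pou5f1* was at 547 and 398 CPM in them. Both libraries are among the 6 over 40000000 counts, and with null 3 they had the fewest genes detected, 15531 in null 2, 17961 in WT 3 and 15171 in null 3 against 19038 to 22310 in the 14 others. The part of these measures in the high values was not tested.

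**Figure D4:**
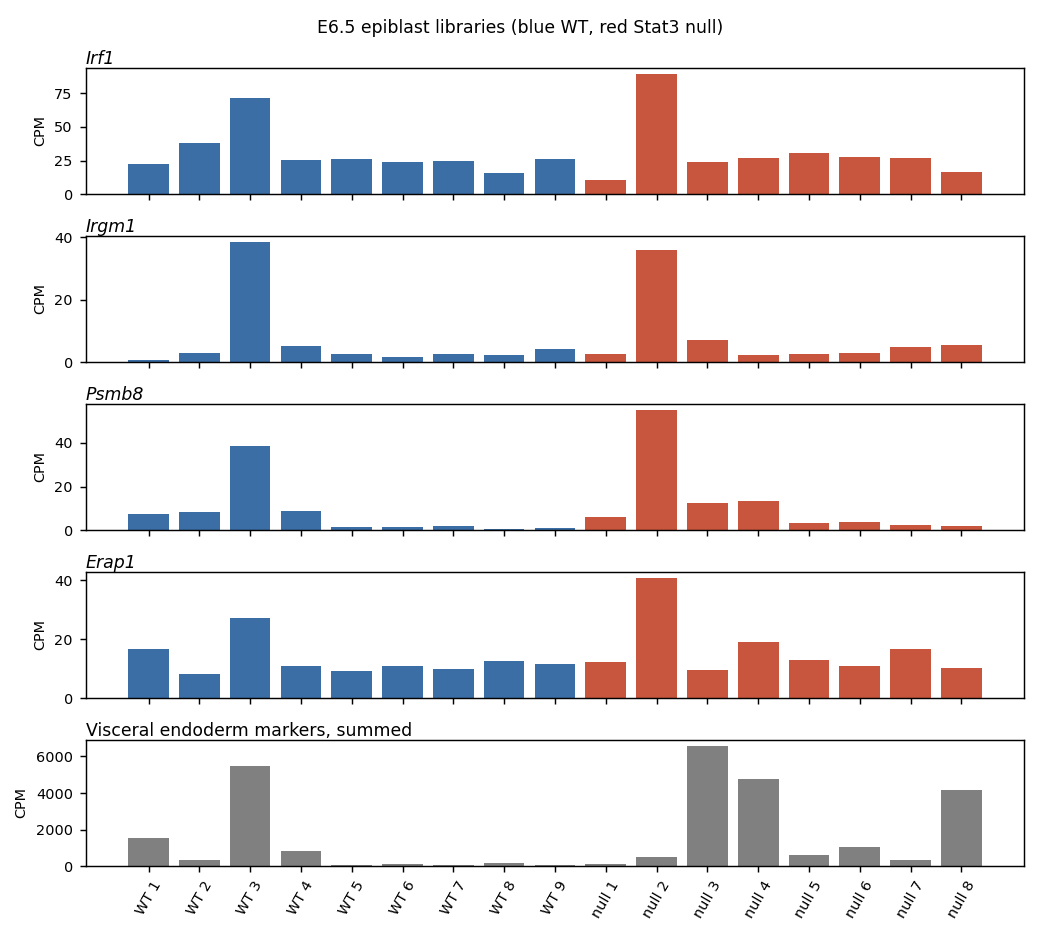
Level of *Irf1*, *Irgm1*, *Psmb8* and *Erap1* and the summed level of 12 visceral endoderm markers, in CPM, in each E6.5 library. WT 3 and null 2 have the tallest bars for all 4 genes, whereas the marker sum is high in WT 3 (5490 CPM) and in null 3, null 4 and null 8 (6579, 4767 and 4174 CPM) and lower in null 2 (510 CPM).

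The comparison of null with WT sets embryos of the same day beside each other. The study reports null embryos as about a day behind their littermates, so genotype and developmental age cannot be told apart in it. At E5.5 none of the 10 genes was called in edgeR and no gene at all of 18690 was (0%), with 467 genes and none of the 10 at an unadjusted p under 0.05. *Erap1* had a log2 fold change of -0.98 (SE 0.90, 95% interval -3.13 to 1.17) and *B2m* of 0.85 (SE 0.44, 95% interval -0.18 to 1.88), or -0.60 and 0.62 without E5.5 null 1. That library held 0.872 CPM of *Irf1*, 0 CPM of *Psmb8* and 0.872 CPM of *Erap1*, against 23.2 to 53.7, 10.6 to 26 and 11.1 to 17.3 CPM in the other 3 null libraries. At E6.5 none of the 6 genes tested was called in edgeR and again no gene of 17095 was (0%), with 1414 genes and none of the 6 at an unadjusted p under 0.05. The median log2 fold change was 0.27 over the 6 genes (0.55 without E6.5 WT 3) and -0.01 over all genes. For *Irf1* the 8 null libraries had a median of 26.9 CPM and the 9 WT libraries of 25.2 CPM, and the log2 fold change was 0.04 (SE 0.36, 95% interval -0.72 to 0.79). It was 0.33 for *Erap1* (SE 0.31, 95% interval -0.31 to 0.97), 0.51 for *B2m* (SE 0.43) and 0.63 for *Psmb8* (SE 0.84). Without E6.5 null 2 the values were -0.43 for *Irf1*, -0.03 for *Erap1* and -0.39 for *Psmb8*, and without E6.5 WT 3 they were 0.32, 0.56 and 1.65. Among the 10 genes DESeq2 made no call at either stage. Its calls over all genes numbered 14 for the E5.5 comparison and 18 for the E6.5 one.

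At E7.5 *Irf1* was the one gene with a difference between genotypes that passed the test in some fits. It was at 11.7, 14.5 and 9.77 CPM in the 3 null libraries, whereas 8 of the 9 WT libraries lay between 1.46 and 5.31 CPM and WT 3 held 14.1 CPM. In the test on all 12 libraries none of the 7 genes was called, against 1.17% of 19680 genes, and the log2 fold change of *Irf1* was 1.36 (SE 0.47, 95% interval 0.35 to 2.37, edgeR adjusted p = 0.121). Without E7.5 WT 3 it was called higher in null, with a log2 fold change of 1.79 (edgeR adjusted p = 0.00141), and 1105 of all genes were called. Over all alternatives the log2 fold change of *Irf1* ran from 0.84 to 1.87 and the adjusted p from 4.35e-04 to 0.899. Genotype and the delay of null embryos cannot be told apart in these values. Markers of the epiblast moved with these values. Their summed level over 8 genes was 4386 to 6129 CPM in the 3 null libraries and 5992 CPM in WT 3, against 1132 to 3227 CPM in the 8 other WT libraries, and visceral endoderm markers summed to 47.0 to 289 CPM, 397 CPM and 730 to 4482 CPM in the same libraries. Their part in the result was not tested. The log2 fold changes of the other genes at E7.5 were -0.49 for *Irgm1* (SE 0.68), -1.61 for *Tap1* (SE 1.95), 0.30 for *Erap1* (SE 0.47) and -0.29 for *B2m* (SE 0.28). At few counts they were 1.15 for *Psmb8* (SE 1.82) and -0.52 for *Nlrc5* (SE 1.42). Adjusted p-values in edgeR were 0.676 or higher for all of these. The difference between the genotype effects at E7.5 and E6.5 was 1.31 on the log2 scale for *Irf1* (SE 0.79, edgeR adjusted p = 0.512) and -0.81 for *B2m* (SE 0.55, edgeR adjusted p = 0.595).

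In EpiSC lines most of the genes were lower without *Stat3*. Since this difference is taken to have chosen them, no test is given. *Stat3* was at 3.17 and 3.52 CPM in the null lines and at 17.8 and 23 CPM in the WT lines. *Irf1* was at 30.3 and 34.1 CPM in null and at 77.5 and 69.0 CPM in WT, a log2 fold change of -1.21. *Irgm1* was at 4.90 and 5.98 CPM against 19.8 and 17.7 CPM, *Gbp2* at 1.51 and 1.22 CPM against 7.60 and 10.7 CPM and *Erap1* at 3.58 and 3.62 CPM against 10.5 and 11.2 CPM, with log2 fold changes of -1.80, -2.76 and -1.61. Of all 20736 genes tested in these lines 22 (0.106%) were called, 13 of them lower in null (0.0627%), and nothing is read from this for the 10 genes. *Gbp3*, at 0.221 and 0.0436 CPM against 0.639 and 0.400 CPM, and *Psmb8*, at 0.410 and 0.251 CPM against 1.42 and 0.745 CPM, had log2 fold changes of -2.05 and -1.75 at low counts.

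**Figure D5:**
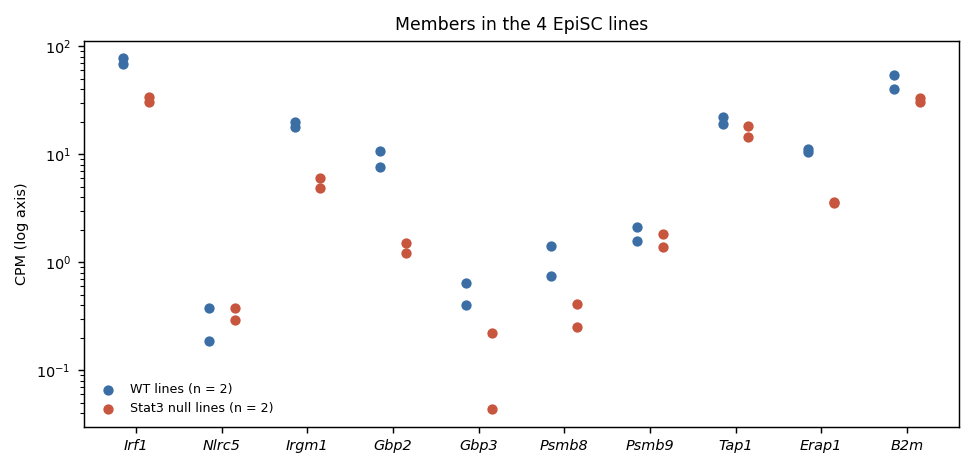
Level of each gene in the 2 WT and 2 *Stat3* null EpiSC lines, in CPM on a log axis, 1 point per line. Both null lines lie below both WT lines for 8 of the 10 genes, and the null and WT points of *Nlrc5* and *Psmb9* interleave.

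The other 4 genes had fold changes nearer to 0. *B2m* was at 30.3 and 33.5 CPM in null and at 39.9 and 54.4 CPM in WT, *Tap1* at 18.2 and 14.5 CPM against 19.0 and 22.4 CPM, and *Psmb9* at 1.39 and 1.82 CPM against 2.13 and 1.56 CPM, with log2 fold changes of -0.58, -0.36 and -0.22. *Nlrc5* was at 0.378 and 0.295 CPM against 0.380 and 0.188 CPM, a log2 fold change of 0.22. Both null lines lay below both WT lines for 8 of the 10 genes, and for 18.8% of all genes tested, from which nothing is read either. The *Psmb8* share of *Psmb8* plus *Psmb5* per length was 0.449% ± 0.139 in null and 1.52% ± 0.400 in WT (SD, n = 2). Visceral endoderm markers were at 1.63 to 2.49 CPM in the 4 lines and immune markers at 1.25 to 5.60 CPM. The lines were made with another library kit than the epiblasts and lie in another table, so their levels were not tested against epiblasts. Set side by side, *B2m* and *Tap1* were higher in all 4 lines than in any epiblast, with up to 15.6 and 8.90 CPM in epiblasts, while *Psmb8* was lower in the lines than in all E5.5 libraries except null 1.

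Of 59 other genes of the pathway, the ligand genes *Ifng* and *Ifnb1*, named here after their values were seen, were at 0 in every library of both tables, and the receptor gene *Ifngr1* was present in each group, from 5.66 ± 1.51 CPM (SD, n = 9) in WT at E6.5 to 15.9 ± 0.321 CPM (SD, n = 2) in WT EpiSCs. From E6.5 to E7.5 in WT, 41 of the pathway genes were tested, 2 were called higher and 6 lower, beside 8.83% called of all genes. Lower were the proteasome and loading genes *Psmb10* (log2 fold change -1.31), *Psme2* (-1.18) and *Tapbp* (-1.64), which encode an inducible subunit, a proteasome activator and tapasin, and the antiviral genes *Oasl2* (-2.98), *Bst2* (-1.93) and *Parp14* (-2.39). Higher were *Jak2* (1.69), a kinase of the interferon gamma receptor, and *Ddx58* (1.03), an RNA sensor. From E5.5 to E6.5 in WT 49 were tested and 4 were called lower, beside 5.15% called of all genes, namely *Jak1* (-1.17), *Jak2* (-2.61), *H2-D1* (-1.49) and *Ifitm3* (-1.62). At E7.5, 46 were tested between genotypes and 2 were called lower in null, beside 1.17% called of all genes, namely *Jak2* (-1.69) and *Ddx58* (-1.76), and none at E5.5 or E6.5. In EpiSCs 53 were measured above the filter, and 40 of them were lower in null. The median log2 fold change was -0.44 over the 53 and -0.01 over all genes. *Tapbp* had a log2 fold change of -0.98 in these lines. The pathway lists were chosen with earlier results of these data known, so nothing is read from these EpiSC values.

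Within groups the genes varied together in part. Over the 35 epiblast libraries, each expressed as log2 CPM minus its group mean, Pearson's r was 0.80 between *Irgm1* and *Gbp2* (Spearman's rho 0.56), 0.80 between *Irf1* and *Erap1* (rho 0.50) and 0.76 between *Irf1* and *Psmb8* (rho 0.61), and -0.37 between *Irf1* and *B2m* (rho -0.13). Without the 2 libraries farthest from the median of the first gene the r values were 0.63, 0.61, 0.59 and -0.39. These are descriptions of libraries that share depth and dissection. The 5 genes most like the mean of the 10 by the same measure, among 14184 genes, were *C130074G19Rik* (r = 0.84), *Cpxm1* (0.82), *Cc2d1b* (0.81), *Ssbp3* (0.80) and *Fam69a* (0.80).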

How the data were processed

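Single epiblasts (35 libraries) and EpiSC lines (4 libraries) were profiled by total RNA-seq. The authors deposited whole-number gene counts in 1 table for epiblasts and 1 for EpiSCs. Per the labels and the study's methods, reads were trimmed with Trim Galore, aligned to GRCm38/mm10 with HISAT2 and counted with StringTie. The annotation version and strand setting are not given in the sources used here. Epiblast libraries were made with a low-input stranded kit and EpiSC libraries with ribosomal depletion and another kit, so the tables were not tested against each other, and total counts set the precision of low genes. Samples were grouped by the labels.

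Each comparison was fitted on the libraries of its groups with edgeR 4.0.16 in R 4.3.3 (TMM, genes with at least 10 counts by group and 15 in total, robust quasi-likelihood test), with p-values adjusted by Benjamini-Hochberg across every gene in the fit. The interaction used all 35 epiblasts. A call needed an absolute log2 fold change over 1 and an adjusted p under 0.05. The tests were tested on simulated data. p-values measure the spread between single epiblasts, whose litters were not used. Alternatives were DESeq2 1.42.0, RLE factors, no filter, a mean count of at least 50, removal of genes over 1% of counts, 1 fit of all epiblasts, the replicate number as a block, voom quality weights (limma 3.58.1), depth groups at 40000000 counts and leaving out each library. Leaving out 3 libraries together was chosen after seeing the data. The genes and all lists were chosen with earlier results of these data known. The text names all 10 genes, *Stat3*, called pathway genes, partners of the 10 genes and the 5 genes most like them. From the lists, 1 symbol that names more than 1 gene in the tables was left out. Intervals and floors of 3 counts cover counting error only. Exon lengths are from GENCODE vM21.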

Additional observations from a re-analysis of the deposited data

Results flagged for a closer look

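In groups of 4 to 10 epiblasts, 37 sets of a gene's levels in a group were checked. A library was flagged where its gap to its nearest neighbour, over the range, exceeded Dixon's 95% critical value. That value is made for normally distributed levels, whereas CPM is skewed and often 0. Where all other libraries were at 0, the highest was flagged by construction. The number of flags therefore has no known rate under chance, and nothing is read from it. In 16 sets the highest library did so. E6.5 WT 3 accounted for 7 of them, with 71.26 CPM of *Irf1*, 38.66 of *Irgm1*, 3.204 of *Gbp2*, 3.844 of *Gbp3*, 38.63 of *Psmb8*, 3.766 of *Tap1* and 27.16 of *Erap1*. E6.5 null 2 accounted for 5, with 89.76 CPM of *Irf1*, 35.87 of *Irgm1*, 3.99 of *Gbp2*, 55.24 of *Psmb8* and 40.8 of *Erap1*. The other 4 were *Gbp3* in E6.5 null 4 (0.8373 CPM), *Psmb9* in E6.5 null 6 (0.6219 CPM), *Irf1* in E7.5 WT 3 (14.11 CPM) and *Psmb8* in E7.5 WT 6 (0.8888 CPM).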

How the results depend on the processing

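The calls of *Irf1*, *Psmb8*, *Erap1* and *B2m* between E6.5 and E7.5 in WT were kept under every alternative run. Of 779 alternative values of 36 epiblast fold changes, 748 kept direction and side of the threshold, 17 newly passed it and 14 of 6 results changed sign. The cause was not tested. Genes called under DESeq2 numbered 14 at E5.5, 18 at E6.5 and 993 at E7.5 between genotypes (0, 0 and 231 in edgeR), 203 in EpiSCs (22), 1921 for WT E5.5 to E6.5 (1070), 1027 and 292 for the null intervals (363 and 20) and 515 for the interaction (59). In 1 fit of all 35 epiblasts they numbered 5 at E5.5, 11 at E7.5, and 1478 and 104 for the null intervals. Without the low-count filter they numbered 75 in EpiSCs, 2805 for WT E6.5 to E7.5 (1518) and 37 for the interaction, which had 105 at a mean count of at least 50. Without the 3 libraries that stood apart they numbered 2 at E6.5, 1105 at E7.5, 2029 for WT E5.5 to E6.5 and 868 for the interaction. With voom weights they numbered 87 at E6.5 and 1190 at E7.5, and 16 in E6.5 libraries under 40000000 counts.

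Of the 10 genes, 1 was called at E7.5 without the 3 libraries or with voom weights. For WT E5.5 to E6.5, 1 was called with DESeq2, beside 1921 of all genes, and 4 without the 3 libraries, beside 2029. These 4 include *Gbp2* and *Gbp3*, which passed the filter through E5.5 alone, so nothing is read from the 4. For WT E6.5 to E7.5, 7 were called with no filter, beside 2805 of all genes, or in 1 fit. These 7 include *Gbp2*, *Gbp3* and *Psmb9*, which were at 0 in all 9 E7.5 WT libraries and failed the filter of the main fit. Nothing is read from that count. For null E5.5 to E6.5, 1 was called with DESeq2 or in 1 fit. For null E6.5 to E7.5, 2 were called with DESeq2, of which *Psmb8* passed the filter through E6.5. For the interaction 1 was called without the 3 libraries. Leaving out 1 library gave 0 to 2 genes at E6.5, 0 (without null 2) to 1105 (without WT 3) at E7.5, 26 to 159 in EpiSCs, 102 (without E5.5 WT 1) to 2029 (without E6.5 WT 3) for WT E5.5 to E6.5, 145 to 723 and 0 to 32 for the null intervals and 0 to 338 for the interaction. Among the 10 genes it gave 0 to 1 at E7.5, 0 to 4 and 4 to 5 for the WT intervals, 0 to 1 for null E5.5 to E6.5 and 0 to 1 for the interaction. The log2 fold change of *Irf1* at E6.5 was -0.099 with the replicate block, -0.124 in libraries over 40000000 counts and -0.431 to 0.321 on leaving out 1 library, where *Psmb8* ran from -0.393 to 1.652 and *Erap1* from -0.032 to 0.557. *Erap1* at E7.5 ran from -0.202 to 0.608, *Irf1* from -0.605 to 0.582 for WT E5.5 to E6.5 and from -0.194 to 0.841 for null, where it was -0.14 without the 3 libraries.

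With the replicate number as a block 0 genes were called at E7.5. Same-numbered libraries correlated at -0.2 to 0.012 there, 0.012 to 0.156 at E6.5 and 0.019 and 0.209 at E5.5. At E6.5, libraries 1, 2 and 3 of both genotypes held 43606327 to 79013960 counts and the others 27913392 to 36540246 counts. Whether same-numbered libraries share a litter or a sequencing run was not tested, and these correlations cannot decide it.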
